A study of Mus musculus with 6 samples.

Results

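The enzymes described here are 43 genes of mucin-type O-glycosylation, chosen by name: the GalNAc transferases that start a mucin glycan and the enzymes that build its core, extend it, sialylate it and fucosylate it. Each gene was read from the probe set that names it alone, with the highest mean over all 6 arrays where there were several, and 42 of the 43 were measured among 19936 genes in all. B4galt2 was read only together with a second gene and is left out. The 3 knockout arrays hold colon epithelium of 8-week-old male C57BL/6J mice labelled Sel1L-delta-IEC. In these mice exon 6 of Sel1l lies between loxP sites (Sel1Lflox/flox), and a Cre recombinase driven by the villin-1 promoter, which is active in intestinal epithelium, removes it. The Cre line had been backcrossed to C57BL/6J. The selection cassette of the targeted allele had been removed earlier by crossing to a βActin-FLPe deleter line. The 3 wild type arrays hold colon epithelium of male mice of the same strain and age. Whether the wild type mice carried a floxed allele or the Cre transgene is not given in the labels, nor whether an array stands for 1 mouse. The p-values therefore measure the spread between these arrays, which may be technical.

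A mucin glycan starts when a polypeptide GalNAc transferase, encoded by a Galnt gene, attaches N-acetylgalactosamine (GalNAc) to a serine or threonine in the Golgi. Galactose then makes core 1, or N-acetylglucosamine (GlcNAc) makes core 3, and a further GlcNAc branch turns these into core 2 or core 4. Repeated galactose and GlcNAc lengthen the arms, and sialic acid and fucose cap them. In colon these chains make up most of the mass of the mucins of the mucus gel, mainly Muc2 of goblet cells, and of the transmembrane mucins on absorptive cells. Several of the enzymes, such as those of B4galt5, B4galt6 and B3gnt5, also or mainly build glycolipids. Sel1L is the adaptor of the Hrd1 ubiquitin ligase, which clears misfolded proteins from the endoplasmic reticulum, a compartment that mucins pass through before they reach these enzymes.

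Most mucin glycosylation transcripts differed little between knockout and wild type colon epithelium. The single called gene was B3galt5, which encodes a β1,3-galactosyltransferase of arm ends and core 3 chains, and it fell. B3gnt6, the core 3 synthase gene, had the largest difference of all members, 2.06-fold lower in the knockout, but its arrays were widely spread and it was not called. Gcnt1 and Gcnt2, which encode branching enzymes, and B4galt1 and B3gnt2, which encode the pair of activities that alternate along a lactosamine arm, were also lower in every knockout array than in every wild type array without being called. The same held for the sialyltransferase gene St6galnac6, with a smaller change of -0.09 on the log2 scale. Galnt6, Galnt3, B4galt3 and St6galnac5 were higher in every knockout array than in every wild type array, by 0.06 to 0.20 on the log2 scale, and were not called either.

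Levels are log2 values made with robust multi-array average (RMA), and a change subtracts the wild type mean from the knockout mean, with limma's moderated standard error (SE). A gene is called at a Benjamini-Hochberg adjusted p under 0.05 over all genes. Of 42 members, 1 was called lower, where the background over all genes was 0.712%, and 0 were called higher, where it was 0.918%. In either direction the background was 1.63%. At an unadjusted limma p under 0.05 there were 2 members higher, with a background of 7.72%, and 7 lower, with a background of 5.62%. Both directions made 21.4% of the members, beside 13.3% of all genes. The knockout and wild type arrays did not overlap for 11 members (26.2%), beside 19.4% of all genes. These were 4 higher, where the background was 11.4%, and 7 lower, where it was 7.98%. A difference of 1.5-fold or more was reached by 1 member, B3gnt6, and by 0.903% of all genes. These shares are descriptions and were not tested against other genes. The median change of the members was -0.01, beside 0.02 for all genes, and 20 members had a positive and 22 a negative change. The positive share was 47.6%, beside 57.2% of all genes. For 39 of the 42 members the 95% interval of the change, not adjusted for the number of genes, lay within a 1.5-fold difference either way. This was 92.9% of the members, beside 96.5% of all genes, and the exceptions were B3gnt6, Gcnt1 and Gcnt2.

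**Figure D1:**
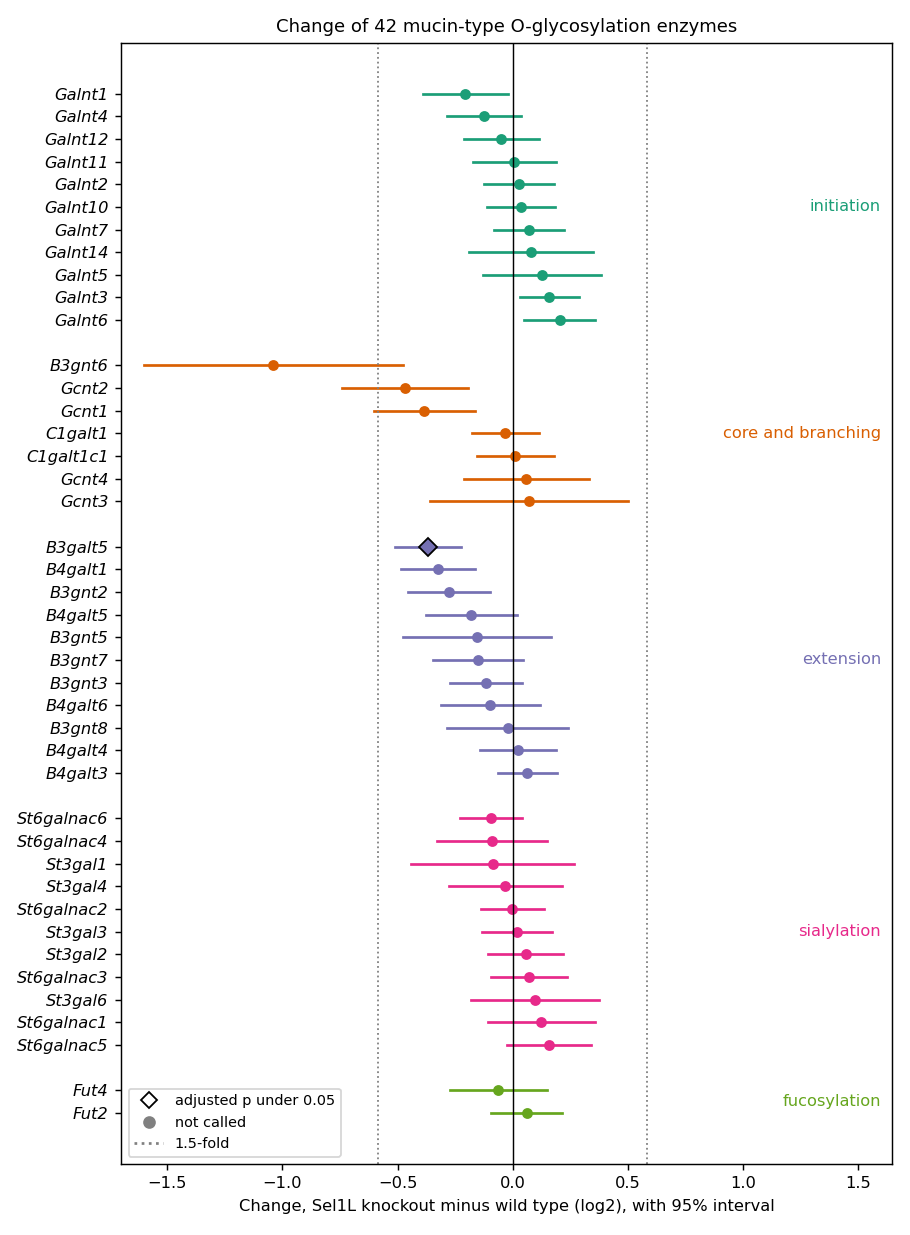
Change of each of the 42 enzymes, in log2 units with wild type subtracted from knockout (horizontal axis), with its 95% interval, grouped by role and coloured by role; dotted lines mark a 1.5-fold difference. B3galt5 (diamond) is the single called gene at -0.37, and B3gnt6, Gcnt2 and Gcnt1 are the members whose intervals reach past the left dotted line.

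The 6 arrays correlated at 0.993 to 0.997 over genes, and the first principal component (38.3% of the variance) placed the 3 knockout arrays on one side and the 3 wild type arrays on the other. Sel1l read 8.70, 9.06 and 8.66 in knockout arrays, against 9.45, 9.67 and 9.54 in wild type arrays, a change of -0.74 ± 0.11 with limma's adjusted p = 0.0182. The exact two-sided permutation p was 0.1, the smallest that 3 arrays against 3 can give. The limma call of Sel1l was lost without knockout array 1 (adjusted p = 0.0875), knockout array 3 (0.0603), wild type array 1 (0.0550) or wild type array 2 (0.0766). Whether the probe set covers the removed exon was not mapped here. All 10 epithelial markers, among them Epcam, Krt8 and Cdx2, lay above the array median of 6.34. So did 36 of the 42 members (85.7%), beside 54.7% of all genes. Of 54 markers of immune cells, fibroblasts, smooth muscle and endothelium, 11 lay above the array median, and 1 was called. This was Ly6g, a neutrophil marker, which fell to 10.57, 10.78 and 11.16 in knockout arrays, against 11.89, 12.15 and 11.75 in wild type arrays (-1.09 ± 0.15, limma's adjusted p = 0.0144). The other 7 neutrophil markers lay below the array median, and the mean log2 level of all 8 overlapped, at 5.74 to 5.92 in knockout arrays and 5.79 to 5.93 in wild type arrays. Most of the list went the other way from Ly6g, as 6 of the 8 had a positive and 2 a negative change, with a median of 0.07. In a tissue sample fewer cells of a type and less RNA per cell cannot be told apart.

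Transcripts of the initiating enzymes differed little. Of the 11 Galnt genes 0 were called by limma in either direction. An unadjusted limma p under 0.05 was found for 3 (27.3%), beside 13.3% of all genes. The changes of the 11 ran from -0.21 to 0.20 with a median of 0.03, and 8 (72.7%) were positive, beside 57.2% of all genes. Galnt6 had the smallest p among them. It read 9.53, 9.58 and 9.53 in knockout arrays, against 9.24, 9.35 and 9.43 in wild type arrays. Every knockout array lay above every wild type array, the change was 0.20 ± 0.067, and it did not pass (adjusted p = 0.229). Galnt3, whose enzyme is also known to protect the hormone FGF23 from cleavage, read 9.49, 9.44 and 9.43 in knockout arrays, against 9.28, 9.31 and 9.30 in wild type arrays. The arrays again did not overlap, at 0.16 ± 0.056, and Galnt3 was not called (adjusted p = 0.259). Galnt1, a widely used initiating transferase, pointed the other way, with 8.04, 7.94 and 7.83 in knockout arrays and 8.04, 8.25 and 8.15 in wild type arrays. Knockout array 1 lay just above wild type array 1, so the groups overlapped, and the difference of -0.21 ± 0.081 was not called (adjusted p = 0.314).

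The remaining initiating enzymes had overlapping arrays. Galnt2, another widely used transferase, changed by 0.03, with a 95% interval of -0.12 to 0.18. Galnt7 and Galnt10, whose enzymes prefer peptides that already carry GalNAc, differed by 0.07 (interval -0.08 to 0.22) and 0.03 (interval -0.11 to 0.18). Galnt4 and Galnt12 differed by -0.12 and -0.05, and Galnt5 and Galnt11 by 0.13 and 0.01. Galnt5 read 8.64, 8.59 and 8.47 in knockout arrays, against 8.35, 8.27 and 8.70 in wild type arrays, where array 3 lay above all others. Galnt14 lay below the array median, at 4.90 ± 0.26 in the knockout and 4.82 ± 0.044 in wild type (SD, n = 3 each). Each of the 11 intervals lay within 1.5-fold, as did those of 96.5% of all genes and that of the called B3galt5.

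The core-building enzymes were split. Transcripts of the core 1 pathway differed by less than the spread between arrays, while that of the core 3 synthase was lower in all knockout arrays. Of the 7 genes of this role 0 were called by limma, 3 had an unadjusted p under 0.05, and those 3 were lower with no overlap between the groups. Over all genes, 13.3% had such a p in either direction and 7.98% were lower without overlap. C1galt1, the core 1 synthase gene, read 10.70, 10.62 and 10.56 in knockout arrays, against 10.63, 10.71 and 10.63 in wild type arrays. Its change was -0.03 ± 0.063, with a 95% interval of -0.18 to 0.11. C1galt1c1 encodes Cosmc, the endoplasmic reticulum chaperone that the core 1 synthase needs to fold, and differed by 0.01 ± 0.074 (interval -0.16 to 0.18).

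B3gnt6 adds GlcNAc to GalNAc and so makes core 3, a structure typical of colon mucin. It read 7.62, 8.11 and 7.30 in knockout arrays, against 9.16, 8.71 and 8.28 in wild type arrays. Knockout array 2 lay close below wild type array 3, and the groups did not overlap. The change was -1.04 ± 0.25 with a 95% interval of -1.60 to -0.48 and was not called (limma's adjusted p = 0.0939). Without wild type array 3, its lowest wild type array, the change was -1.26 and passed (adjusted p = 0.0472). Without knockout array 2 it was also -1.26 and did not pass (adjusted p = 0.0766), and the other 4 fits gave -1.04 to -0.82 with adjusted p of 0.229 to 0.255.

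Gcnt1 encodes the core 2 branching enzyme. It read 7.57, 7.93 and 7.86 in knockout arrays, against 8.19, 8.21 and 8.12 in wild type arrays. Knockout array 1 was the lowest, and the difference of -0.38 ± 0.095 was not called (adjusted p = 0.111). Gcnt2 encodes the I-branching enzyme, which adds branches to lactosamine arms, in several isoforms from separate first exons. Which of these isoforms the probe set reads was not mapped. Gcnt2 read 7.17, 7.64 and 7.49 in knockout arrays, against 7.90, 8.01 and 7.79 in wild type arrays. The order of the knockout arrays was that of Gcnt1, and the difference of -0.47 ± 0.12 was not called (adjusted p = 0.119). Gcnt3, whose enzyme makes core 2 and core 4 branches in mucin-secreting tissues, varied widely within both groups, from 9.62 to 10.16 in the knockout and from 9.43 to 10.08 in wild type. Its change was 0.07 ± 0.19 with an interval of -0.36 to 0.50. Gcnt4, a further core 2 enzyme gene, differed by 0.06 ± 0.12.

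**Figure D2:**
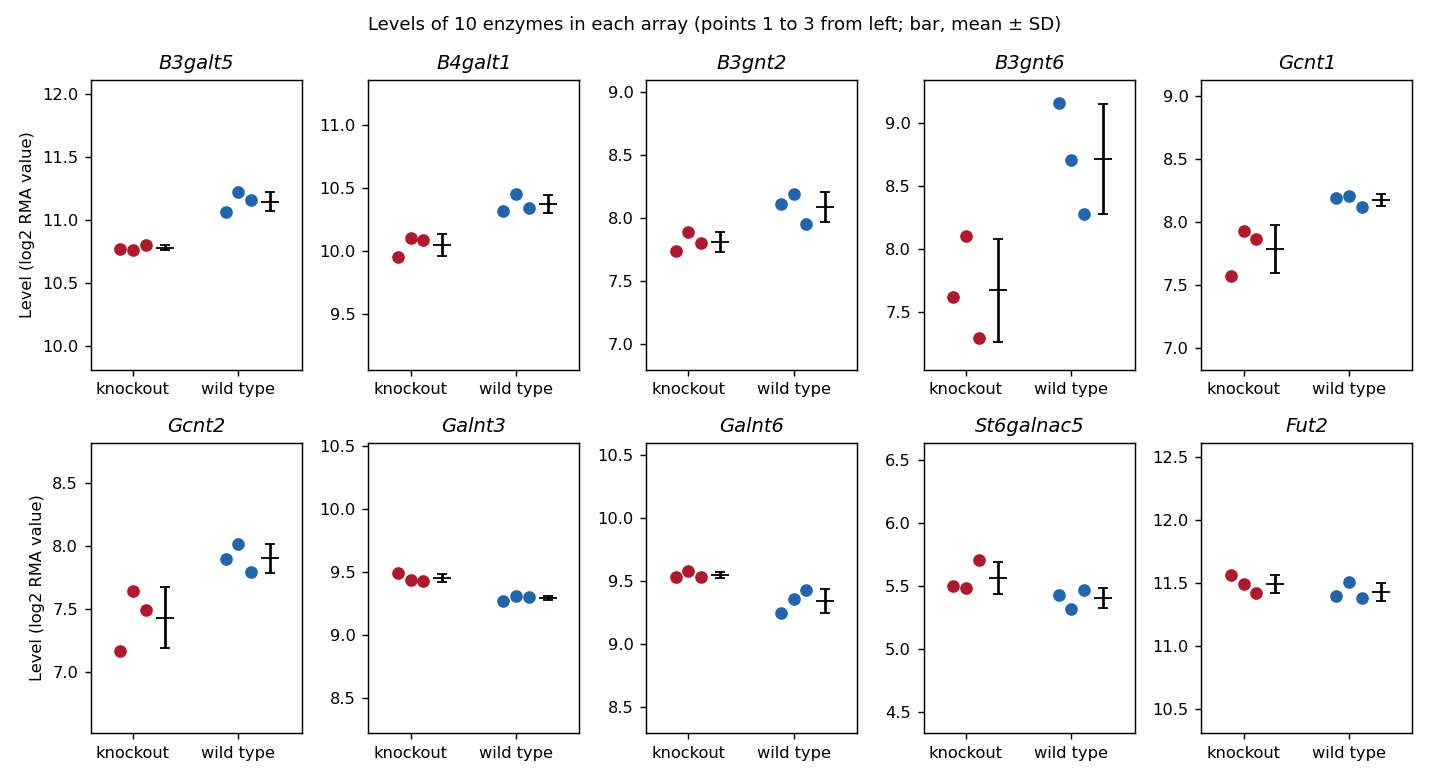
Level of 10 enzymes in each array (vertical axis, log2 RMA value, all panels spanning the same number of log2 units), knockout points in red left of wild type points in blue, with the mean ± SD of 3 arrays beside each group. The groups do not overlap in 9 of the panels, Fut2 being the exception, and B3gnt6 shows both the largest difference of means and the widest spread within a group.

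Extension enzymes leaned lower, and this role held the one called member. Of 11 measured genes, 1 was called lower by limma, beside 0.712% of all genes, and 0 were called higher. An unadjusted limma p under 0.05 was found for 3 (27.3%), beside 13.3% of all genes. A negative change was found for 9, so that 18.2% were positive, beside 57.2% of all genes. The median change of the 11 genes was -0.15, beside 0.02 over all genes. B3galt5 transfers galactose in β1,3 linkage to terminal GlcNAc, which makes type 1 chains and extends core 3. It read 10.77, 10.76 and 10.80 in knockout arrays, against 11.06, 11.22 and 11.16 in wild type arrays. The knockout arrays lay close together and below all wild type arrays. The change was -0.37 ± 0.063 with a 95% interval of -0.51 to -0.22, or 1.29-fold lower in the knockout (limma's adjusted p = 0.0286).

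The call of B3galt5 did not outlast the loss of any array. Its adjusted p was 0.119, 0.105 and 0.0822 without knockout arrays 1, 2 and 3, and 0.0600, 0.105 and 0.0760 without wild type arrays 1, 2 and 3. The change itself stayed between -0.41 and -0.33 in these 6 fits. Its neighbours on chromosome 16 in the RefSeq order of measured genes, Sh3bgr and Igsf5, chosen for their place, differed by -0.05 ± 0.081 and -0.02 ± 0.085 and were not called.

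RefSeq lists 3 starts for B3galt5 on the plus strand of chromosome 16 (build GRCm38.p6). The 250 bases before each are shown because it is the called member, and which start the probe set reads was not mapped. Capitals mark ACGTG on either strand, a core that the stress factors XBP1s and ATF6 can bind and that is not particular to them. The 2 matches of the second start overlap in one palindrome, CACGTG.
B3galt5 start 1, chr16:96235551-96235800: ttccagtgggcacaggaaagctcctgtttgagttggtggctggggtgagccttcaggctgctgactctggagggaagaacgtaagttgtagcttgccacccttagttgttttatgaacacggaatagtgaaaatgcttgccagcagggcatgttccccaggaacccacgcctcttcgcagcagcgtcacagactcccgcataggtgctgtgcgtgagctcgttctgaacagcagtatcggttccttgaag
B3galt5 start 2, chr16:96273263-96273512: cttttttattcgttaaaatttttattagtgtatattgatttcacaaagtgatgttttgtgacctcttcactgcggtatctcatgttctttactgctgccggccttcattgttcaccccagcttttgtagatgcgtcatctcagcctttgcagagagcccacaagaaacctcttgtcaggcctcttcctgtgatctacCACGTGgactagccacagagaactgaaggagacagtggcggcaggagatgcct
B3galt5 start 3, chr16:96280782-96281031: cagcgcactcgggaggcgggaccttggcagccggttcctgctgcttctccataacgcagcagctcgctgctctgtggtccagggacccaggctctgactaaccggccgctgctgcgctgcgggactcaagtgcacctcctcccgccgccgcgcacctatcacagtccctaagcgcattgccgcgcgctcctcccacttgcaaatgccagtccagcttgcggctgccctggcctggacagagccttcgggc
In these letters ACGTG was found upstream of start 2 and not of starts 1 and 3. Over all 32851 RefSeq windows of this length, 16.6% held ACGTG on either strand. It was present in 10 of the 38 windows (26.3%) of the 28 members that matched the table, and B3gnt6 was not among these 28. The longer endoplasmic reticulum stress element (ERSE), CCAAT and CCACG with 9 bases between them, was in 0 of the 38 windows and in 0.113% of all windows. The ATF4 element TGATGNAA was in 1 of the 38 and 3.45% of all, the CDX motif TTTATNG in 1 and 9.81%, and the HNF1 half-site GTTAAT in 1 and 6.43%. The last lay upstream of the first start of Gcnt2. A match describes the letters and is not evidence of binding.

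B4galt1 and B3gnt2 encode the galactosyltransferase and the GlcNAc transferase most used to alternate sugars along a lactosamine arm. B4galt1 read 9.95, 10.10 and 10.09 in knockout arrays, against 10.32, 10.45 and 10.35 in wild type arrays. The groups did not overlap, and the change of -0.32 ± 0.070 fell short of the threshold (limma's adjusted p = 0.0689). B3gnt2 read 7.74, 7.89 and 7.80 in knockout arrays, against 8.11, 8.19 and 7.95 in wild type arrays. Wild type array 3 lay just above knockout array 2, and the change of -0.28 ± 0.078 was not called (adjusted p = 0.157).

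The other extension genes had smaller differences. B4galt5, a lactosylceramide synthase gene, read 9.59, 9.69 and 9.78 in knockout arrays, against 9.77, 9.80 and 10.03 in wild type arrays. Its change was -0.18 ± 0.087 (adjusted p = 0.428), while its paralog B4galt6 differed by -0.10 ± 0.093. B3gnt7 (-0.15), which acts on lactosamine arms, B3gnt5 (-0.15), a glycolipid enzyme gene, and B3gnt3 (-0.11), whose enzyme extends core 1, were not called. Wild type array 3 was the highest of all 6 arrays for B4galt5, B3gnt5 and B3gnt7. B4galt3 and B4galt4, of the same galactosyltransferase family as B4galt1, differed by 0.06 ± 0.057 and 0.02 ± 0.072. The B4galt3 arrays did not overlap although the difference was that small, with 8.59, 8.61 and 8.64 in the knockout and 8.58, 8.51 and 8.55 in wild type. B3gnt8 lay below the array median and differed by -0.02.

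No sialyltransferase was called. Of the 11 genes 0 had an unadjusted limma p under 0.05, and the changes ran from -0.09 to 0.16 with a median of 0.02. Each interval lay within 1.5-fold, as did those of 96.5% of all genes. St6galnac5 had the smallest p, and its enzyme is best known for sialylating gangliosides. It read 5.50, 5.48 and 5.71 in knockout arrays, against 5.43, 5.32 and 5.47 in wild type arrays. The gap between the groups was small and the probe set lay below the array median, with a change of 0.16 ± 0.080 (adjusted p = 0.453). St6galnac6, of the same family, was lower without overlap, with 11.44, 11.53 and 11.54 in knockout arrays and 11.58, 11.59 and 11.62 in wild type arrays, and its change of -0.09 ± 0.059 was not called (adjusted p = 0.558).

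Enzymes that cap lactosamine arms with α2,3-linked sialic acid had narrow differences. St3gal3, St3gal4 and St3gal6 differed by 0.02, -0.03 and 0.10. For St3gal6 and St3gal4 wild type array 3 read highest of all arrays, at 10.81 and 11.07. St3gal1, the main α2,3-sialyltransferase of core 1, differed by -0.09 ± 0.15, and a second probe set of the gene gave 0.10 ± 0.11, with neither called. St3gal2, which acts on core 1 and on gangliosides, differed by 0.06. Of the enzymes that place sialic acid on GalNAc, St6galnac1, the sialyl-Tn synthase gene, differed by 0.12 ± 0.10, with 5.87, 6.20 and 5.81 in knockout arrays and 5.84, 5.77 and 5.88 in wild type arrays. St6galnac2, St6galnac3 and St6galnac4 differed by -0.0016, 0.07 and -0.09. St6galnac1, St6galnac3 and St3gal2 lay below the array median.

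Fucosylation showed no called gene among 2. Fut2, which adds the α1,2-fucose of the H antigen and is the main such enzyme of colon epithelium, read 11.56, 11.49 and 11.42 in knockout arrays, against 11.40, 11.51 and 11.38 in wild type arrays. The arrays overlapped, and the change was 0.06 ± 0.068 with an interval of -0.09 to 0.22 (adjusted p = 0.765). Fut4, an α1,3-fucosyltransferase gene of Lewis x structures, read 8.85, 8.86 and 8.85 in knockout arrays, against 8.76, 8.86 and 9.13 in wild type arrays. Wild type array 3 stood above the rest, and the change was -0.06 ± 0.092.

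**Figure D3:**
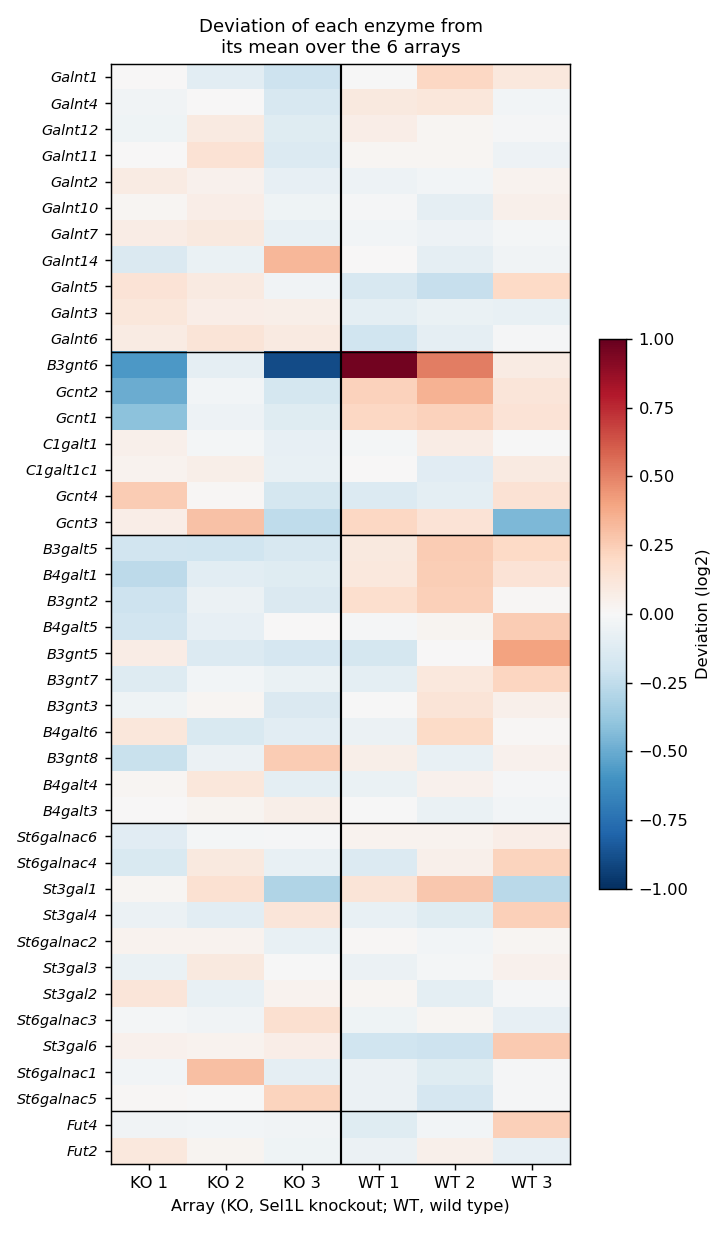
Deviation of each of the 42 enzymes from its own mean over the 6 arrays (colour, log2), with knockout arrays left of wild type arrays and roles separated by lines, within each role from the lowest to the highest change. B3gnt6, Gcnt2, Gcnt1, B3galt5, B4galt1 and B3gnt2 are blue in the knockout columns, and B3gnt5, B4galt5, St3gal4, St3gal6 and Fut4 are reddest in wild type array 3.

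Some marker lists of epithelial cell types differed between the groups, and others overlapped. Of 9 measured absorptive markers 3 were called lower by limma, beside 0.712% of all genes. These were Atp12a (-0.81 ± 0.092), Scnn1b (-0.64 ± 0.10) and Aqp8 (-0.80 ± 0.14). At an unadjusted limma p under 0.05 there were 7, all lower, beside 13.3% of all genes in either direction. A negative change was found for 8 of the 9, and the median was -0.36. The mean log2 level of the list was 10.56 to 10.72 in knockout arrays and 10.95 to 11.14 in wild type arrays. Goblet cell markers, mucins and these enzymes left out, overlapped, with a mean log2 level of 10.82 to 10.92 in knockout arrays and 10.58 to 10.90 in wild type arrays. Wild type array 3 held the 10.90, and the other wild type arrays read 10.58 and 10.63. None of the 15 was called by limma, and the median change was 0.12, with 12 of the 15 positive. An unadjusted limma p under 0.05 was found for 3 (20%), all higher, beside 7.72% of all genes higher. The epithelial list overlapped too, at 11.67 to 11.74 in knockout arrays and 11.67 to 11.77 in wild type arrays. All 9 absorptive and all 15 goblet markers lay above the array median. Of 8 enteroendocrine markers 1 was called lower by limma, the peptide hormone gene Pyy (-0.49 ± 0.072, adjusted p = 0.0167). Of the same 8, 3 (37.5%) had an unadjusted limma p under 0.05, all lower, beside 5.62% of all genes lower. A negative change was found for 7 of the 8, and 5 of the 8 lay above the array median. Their mean log2 level was 7.21 to 7.46 in knockout arrays and 7.48 to 7.79 in wild type arrays. Of 7 tuft cell markers 0 were called by limma, and 2 (28.6%) had an unadjusted p under 0.05, beside 13.3% of all genes. All 7 had a positive change, beside 57.2% of all genes, with a mean log2 level of 7.17 to 7.24 in knockout arrays and 7.03 to 7.15 in wild type arrays. Of 8 crypt stem and cycling markers 0 were called by limma and 0 had an unadjusted p under 0.05. That list overlapped, at 7.69 to 7.94 in knockout arrays and 7.85 to 7.92 in wild type arrays. The mean deviation of the extension genes was -0.09 to -0.06 in knockout arrays and 0.0022 to 0.12 in wild type arrays. For core and branching genes it was -0.25 to 0.02 in knockout arrays and 0.02 to 0.21 in wild type arrays, with overlap between knockout array 2 and wild type array 3. The part of these markers, Ly6g included, in the enzyme differences was not tested.

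**Figure D4:**
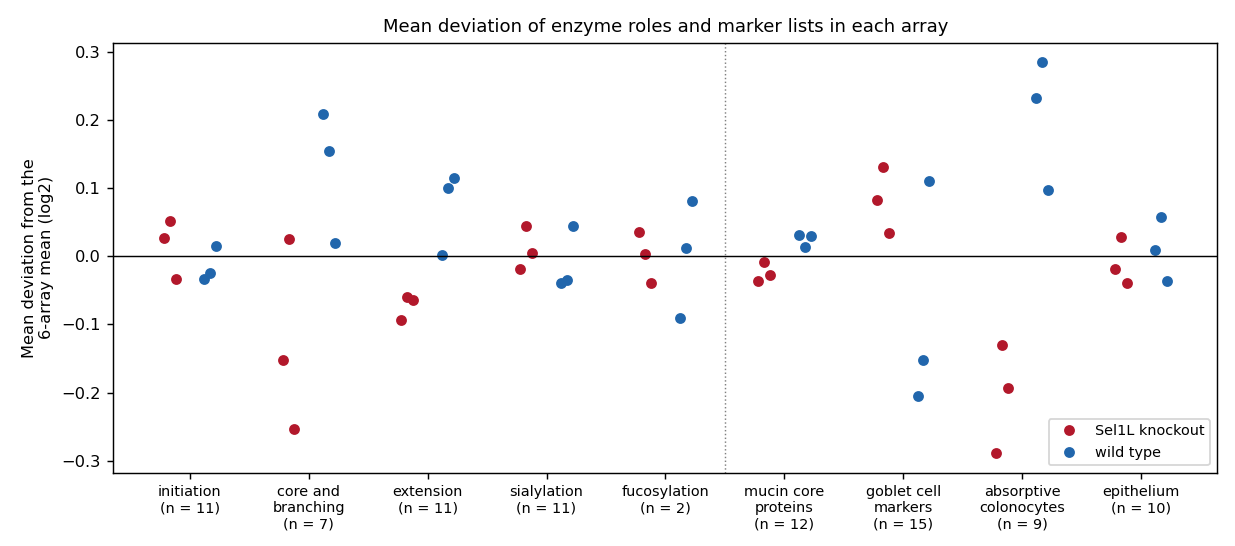
Mean deviation from the 6-array mean (vertical axis, log2) of the 5 enzyme roles and, right of the dotted line, of mucins and of goblet, absorptive and epithelial markers, with 1 point an array, knockout in red left of wild type in blue, and n the number of genes. Knockout points lie below all wild type points for extension, mucin core proteins and absorptive colonocytes.

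Of 142 measured genes of the neighbouring steps of the pathway, 2 were called by limma, beside 1.63% of all genes. The mucin core proteins, which carry these glycans, had 0 of 12 called by limma, with a median change of -0.04. At an unadjusted limma p under 0.05 there were 5 (41.7%), 1 higher and 4 lower, beside 13.3% of all genes. Muc20, a transmembrane mucin gene, read 6.06, 6.54 and 6.11 in knockout arrays, against 5.63, 5.46 and 5.69 in wild type arrays, a change of 0.64 ± 0.13 that was not called (adjusted p = 0.0529). Its means of 6.24 in the knockout and 5.59 in wild type lay below the array median of 6.34, which 5 of the 12 genes exceeded. Muc4, another transmembrane mucin gene, read 10.10, 9.76 and 9.93 in knockout arrays, against 10.30, 10.44 and 10.38 in wild type arrays. Its change was -0.44 ± 0.091 (adjusted p = 0.0605). Among goblet cell genes, Spdef, a transcription factor of goblet cell maturation, and the calpain gene Capn9 had the smallest p, at 0.28 ± 0.072 (adjusted p = 0.120) and 0.61 ± 0.17 (adjusted p = 0.150). Capn9 read 9.76, 9.82 and 9.68 in knockout arrays, against 8.86, 8.99 and 9.59 in wild type arrays, and without wild type array 3 it passed at a change of 0.83 (adjusted p = 0.00638).

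Genes that make and carry the sugar donors had 0 of 26 called by limma and a median change of -0.01. An unadjusted limma p under 0.05 was found for 3 (11.5%), beside 13.3% of all genes. Pgm3, an enzyme of UDP-GlcNAc synthesis, lay at the threshold. It read 9.21, 9.16 and 9.13 in knockout arrays, against 8.72, 8.78 and 8.92 in wild type arrays, a change of 0.36 ± 0.070 (adjusted p = 0.0505), and it was called without wild type array 3 (adjusted p = 0.0344). Slc35a3, a Golgi carrier of UDP-GlcNAc, was lower without overlap, at -0.26 ± 0.066, and was not called (adjusted p = 0.128). Sulfation genes, whose products add sulfate to colon mucin glycans, had 0 of 14 called and a median of 0.05. Of the 14, 2 (14.3%) had an unadjusted limma p under 0.05, beside 13.3% of all genes. The sulfate transporter gene Slc26a2 differed by -0.25 ± 0.071 (adjusted p = 0.160), and Papss1, which makes the sulfate donor, by 0.20 ± 0.083 (adjusted p = 0.361).

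Other genes of the same enzyme families had 2 of 36 (5.56%) called by limma, both lower, beside 0.712% of all genes. The median change of the 36 was 0.02. B4galnt3, which adds β1,4-linked GalNAc to terminal GlcNAc, fell to 9.04, 9.11 and 9.06 in knockout arrays, against 9.35, 9.44 and 9.57 in wild type arrays. Its change was -0.38 ± 0.072 (adjusted p = 0.0417). Fut9, an α1,3-fucosyltransferase gene of Lewis x, fell to 6.43, 6.05 and 6.37 in knockout arrays, against 6.80, 6.78 and 7.04 in wild type arrays, a change of -0.59 ± 0.11 (adjusted p = 0.0479). Both calls were lost with each array left out, with adjusted p of 0.0665 to 0.157 for B4galnt3 and 0.0878 to 0.116 for Fut9.

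Enzymes of other kinds of O-glycosylation, such as O-fucose and O-xylose on Notch, had 0 of 20 called by limma, with a median of -0.03. At an unadjusted limma p under 0.05 there were 6 (30%), beside 13.3% of all genes. Xxylt1 and Poglut1, both acting on Notch repeats, differed by -0.23 ± 0.057 (adjusted p = 0.109) and -0.32 ± 0.096 (adjusted p = 0.183). Genes that hold Golgi enzymes and ions in place had 0 of 19 called by limma, with a median of 0.10. An unadjusted limma p under 0.05 was found for 7 (36.8%), all higher, beside 7.72% of all genes higher. Golga2, a Golgi matrix protein gene, read 8.50, 8.66 and 8.66 in knockout arrays, against 8.11, 8.29 and 8.33 in wild type arrays, at 0.36 ± 0.080 (adjusted p = 0.0791). Cog6, of the tethering complex that recycles glycosylation enzymes, read 9.40, 9.39 and 9.32 in knockout arrays, against 9.03, 9.07 and 9.16 in wild type arrays, at 0.28 ± 0.063 (adjusted p = 0.0791).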

How the data were processed

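RNA of colon epithelium was measured on Affymetrix arrays in 3 knockout and 3 wild type samples. Per the submitters' processing notes, the log2 values that the authors deposited come from RMA. Software version, probe set definition and build: not given in the sources used here. That the values are on a log2 scale was read from their range, with array medians of 6.32 to 6.36, and they were used as deposited. The platform annotation gave 1 gene for 21789 of 35556 probe sets, several for 1621 and none for 12146. Current symbols came from the RefSeq table of GRCm38.p6, matched on gene identifier (21698 probe sets) or accession (3), while 88 kept the annotated symbol.

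The comparison used limma 3.58.1 (R 4.3.3): a linear model with genotype alone, empirical Bayes moderation, two-sided p-values adjusted by Benjamini-Hochberg over 19936 genes, with no filter on dim probe sets. The fit was also run on simulated data with independent noise and known added changes, as a check of the code. That check does not cover effects shared by the genes of an array. Tables and plots used Python 3.11.15, pandas 2.3.3, scipy 1.17.1 and matplotlib 3.10.9. The members and lists were chosen with earlier results of these data known. The naming rule takes called members, members whose groups do not overlap at an unadjusted p under 0.05, the smallest p of each role, and, of each pathway list, the called genes and up to 3 with the smallest p, of which the first 2 are given. Values of the remaining members complete the account. The number of arrays limits the precision, and no batch label was used.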

Additional observations from a re-analysis of the deposited data

How the results depend on the processing

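The report's values were recomputed under 15 alternatives, which changed the normalization (quantile or median centring), the filter (dropping the dimmest 25% or 50% of genes), the model (replicate block, array weights, intensity trend, robust prior), the probe set summary, or dropped 1 array. The count of called genes, 325 in the report, was 598 without the dimmest 50% of genes, 614 with an intensity trend and 69 to 303 with an array left out. Members called lower numbered 1 in the report, 2 without the dimmest 25% (B3galt5 and B4galt1), 3 without the dimmest 50% and 3 with the trend (B3galt5, B4galt1 and B3gnt6), and 0 to 1 with an array left out, and 0 members were called higher under any limma setting. Called pathway genes numbered 2 in the report, 3 with quantile normalization, 3 with median centring, 6 and 12 without the dimmest 25% and 50%, 14 with the trend, 4 with array weights, 1 with the block and 0 to 3 with an array left out. Sel1l lay between -0.87 and -0.67 when any 1 array was dropped, and was called under each of the 9 settings that kept all arrays. The median change of the members ran from -0.04 to 0.0075 over all settings.

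Same-numbered knockout and wild type arrays had deviations correlated at -0.10, 0.15 and 0.15 over genes, so the numbers were not taken as pairs. With the replicate block limma called 217 genes and 1 member, B3gnt6 (-1.04, adjusted p = 0.0452), while B3galt5 was not called (adjusted p = 0.0712), nor B4galnt3 (0.0746).

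Small changes turned sign under some settings. Galnt11 was -0.0067 and -0.0081, and C1galt1c1 -0.0054 and -0.0035, under quantile normalization and median centring. St6galnac2 was 0.010 under quantile normalization and 0.0024 with array weights, and St3gal1 0.0044 as the mean of probe sets. With an array left out the ranges crossed 0 for Galnt2 (-0.0050 to 0.078), Galnt10 (-0.00019 to 0.068), Galnt11 (-0.062 to 0.075), Galnt14 (-0.067 to 0.17), C1galt1 (-0.067 to 0.0018), C1galt1c1 (-0.042 to 0.059), Gcnt3 (-0.13 to 0.22), Gcnt4 (-0.052 to 0.16), B3gnt5 (-0.28 to 0.0076), B3gnt8 (-0.15 to 0.086), B4galt4 (-0.027 to 0.079), St3gal1 (-0.24 to 0.043), St3gal3 (-0.026 to 0.055), St3gal4 (-0.10 to 0.080), St6galnac2 (-0.021 to 0.034), St6galnac4 (-0.18 to 0.00078) and Fut4 (-0.14 to 0.043). Fewer genes tested or fewer arrays are part of the filters and of the fits without an array, and the cause of the other shifts was not tested.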
